A study of Homo sapiens with 6 samples.

Results

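The genes described are 34 genes of sterol and fatty acid synthesis, most of them known targets or regulators of the sterol regulatory element-binding proteins (SREBPs). They were taken from a given list, whose rule uses no measured value but which was proposed with earlier results of these arrays known. A gene was measured through probe sets that the platform annotation assigns to that gene alone, and the probe set with the highest mean level stood for the gene. In this way 31 of the 34 genes could be measured, among 13738 genes tested in all, and all 31 passed the filter on dim probe sets. No single-gene probe set was listed for FDFT1, CYP51A1 or FADS1, and these were not analysed here.

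RNA came from AGS and HGC-27, 2 established human gastric cancer cell lines. Each line gave 3 one-colour Affymetrix arrays, with 1 array per line and condition, so the lines serve as the 2 replicates of a condition. Parental cells received no plasmid. GFP control cells were nucleofected with 3 µg of empty vector and 1.5 µg of a GFP plasmid, and MIST1 cells with 3 µg of a MIST1 plasmid in place of the empty vector. Both transfected populations were sorted for GFP 24 h after transfection and grown for 24 h more. The labels do not say that parental cells were sorted. The expression was transient, and the sources used here do not name the promoter of the MIST1 plasmid. Values are deposited intensities on a linear scale. Within 1 gene they can be compared between arrays, and they do not rank genes against each other.

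Cholesterol is built from acetyl-CoA through mevalonate and the isoprenoid pyrophosphates to squalene, lanosterol and then a series of sterol intermediates. SREBF1 and SREBF2 encode membrane-bound precursors of transcription factors. When sterols are low, SCAP escorts the precursors to the Golgi for cleavage, and the released factors switch on the synthesis genes, while INSIG1 and INSIG2 hold the SCAP complex in the endoplasmic reticulum when sterols are plentiful. SREBPs also act on the enzymes that make, elongate and desaturate fatty acids. Oxysterols activate a second regulator, the liver X receptors (LXR), whose targets ABCA1, ABCG1 and MYLIP lower cellular cholesterol by export or by lowering uptake.

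Promoters of SREBP targets are known to combine a sterol element with a nearby CCAAT box, bound by NF-Y. The RefSeq promoter windows (GRCh38.p14) held at least 1 window for 27 of the 31 measured genes. The 200 bases before the start site are printed for 4 genes that were lower after transfection in both lines, HMGCS1, INSIG1, MSMO1 and STARD4, and for SREBF2, the 1 gene of the 27 with a perfect TCACCCCAC element. Capitals mark CCAAT or its reverse complement ATTGG, and in SREBF2 also TCACCCCAC. The windows are chr5:43313413-43313612 on the minus strand for HMGCS1, chr7:155297678-155297877 on the plus strand for INSIG1, chr4:165327469-165327668 on the plus strand for MSMO1, chr5:111512536-111512735 on the minus strand for STARD4 and chr22:41832905-41833104 on the plus strand for SREBF2.
HMGCS1: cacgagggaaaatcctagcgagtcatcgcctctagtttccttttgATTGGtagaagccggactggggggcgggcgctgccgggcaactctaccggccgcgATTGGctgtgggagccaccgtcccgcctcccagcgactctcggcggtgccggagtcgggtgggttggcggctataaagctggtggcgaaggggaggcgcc
INSIG1: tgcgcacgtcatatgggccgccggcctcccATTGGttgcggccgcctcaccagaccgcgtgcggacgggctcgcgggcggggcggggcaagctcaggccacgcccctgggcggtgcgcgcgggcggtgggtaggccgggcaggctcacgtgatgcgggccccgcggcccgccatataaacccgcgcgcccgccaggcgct
MSMO1: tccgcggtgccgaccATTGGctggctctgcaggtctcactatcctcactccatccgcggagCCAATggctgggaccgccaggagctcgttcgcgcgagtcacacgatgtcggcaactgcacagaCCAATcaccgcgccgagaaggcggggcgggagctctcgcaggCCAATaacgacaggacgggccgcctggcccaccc
STARD4: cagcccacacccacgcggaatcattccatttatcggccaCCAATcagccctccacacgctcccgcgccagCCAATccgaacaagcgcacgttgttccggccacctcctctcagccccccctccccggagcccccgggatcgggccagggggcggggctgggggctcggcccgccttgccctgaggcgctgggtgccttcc
SREBF2: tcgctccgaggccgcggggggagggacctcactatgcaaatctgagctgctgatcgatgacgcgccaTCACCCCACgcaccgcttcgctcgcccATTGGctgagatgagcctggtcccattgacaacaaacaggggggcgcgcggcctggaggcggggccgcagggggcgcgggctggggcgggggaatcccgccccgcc

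The 5 printed windows differ in how many CCAAT boxes they hold and where. HMGCS1 has 2, starting 155 and 100 bases before the start site, MSMO1 has 4, STARD4 has 2 and INSIG1 and SREBF2 have 1 each. In SREBF2 the sterol element begins 133 bases before the start and the CCAAT box 106 bases before it. Over the 250 bases before each listed start and on both strands, CCAAT occurred in 20 of the 27 genes (74.1%), against 41.4% of the 11065 tested genes with a window and 32.0% of all 35116 windows. At least 2 CCAAT matches were found in 14 of the 27, against 14.9% of the tested genes. Of the 8 genes that fell after transfection, 7 held CCAAT. TCACCCCAC occurred in SREBF2 alone among the 27 (3.70%), against 0.47% of the tested genes. A looser form, TCACNCNAC, which contains every TCACCCCAC, was present in FDPS, HSD17B7, SREBF2 and FADS2 (14.8%, against 2.59%). The Sp1 motif GGGCGG was present in 26 of 27 (96.3%), against 71.3%. The E-box CACGTG occurred in 4 (14.8%), against 10.9%. The E-box CAGCTG, a form that basic helix-loop-helix factors such as MIST1 can bind, also occurred in 4 (14.8%), against 17.6%, and in none of the 8 genes that fell. These matches are descriptions of letters in a window and no binding was measured.

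Several values of the arrays themselves separated the parental arrays from the transfected ones and are given before the results. The 18S rRNA middle control probe set read 1142 in AGS parental and 370.5 in HGC-27 parental cells, and 46.8 to 52.7 in the 4 transfected arrays. MALAT1, a nuclear RNA, read 3685 and 1566 in the parental arrays and 324 to 529 in the transfected ones, and the mitochondrial transcript COX3 read 376 and 456 against 62.2 to 71.2. The 3′ to 5′ ratios lay between 0.968 and 1.05 for ACTB and between 0.826 and 0.883 for GAPDH in all 6 arrays, and the parental array had the highest ratio of its line for both genes. The part of these differences in the results below was not tested. The endogenous MIST1 gene, listed as BHLHA15, read 66.3, 75.8 and 72.5 in AGS parental, GFP control and MIST1 cells and 41.1, 61.9 and 58.7 in HGC-27. It was no higher in the MIST1 arrays than in the GFP controls, and whether this probe set can report the plasmid's transcript was not tested. Of 6 epithelial markers, KRT8, KRT18, KRT19 and EPCAM read 5681 or more in AGS, CDH1 221 to 291 and KRT7 85.6 to 158. In HGC-27, KRT8 read 1349.5 to 1562, CDH1 22.1 to 89.8 and KRT7 7.4 to 33.4, while KRT18, KRT19 and EPCAM read at most 35.8, 9.2 and 34.4. Of 5 fibroblast markers, COL1A1 read 682 to 1314 in AGS and 5620.4 to 5944 in HGC-27, and DCN and LUM read 27.2 to 49.6 and 1.7 to 3.9 in AGS against 3244 to 4608 and 1082 to 1337 in HGC-27. The summed level of 4 hepatocyte and adipocyte markers stayed between 93.3 and 162, that of the 3 measured leukocyte markers of 5 between 62.5 and 111, and that of 4 endothelial markers between 138 and 169.

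After transfection, 8 of the 31 genes fell relative to the parental cells and none rose, when GFP control and MIST1 arrays of both lines (4 arrays) were set against the 2 parental arrays. The 8 were HMGCS1, MSMO1, HSD17B7, INSIG1, STARD4, SCD, ACACA and ELOVL6, with fitted changes from -0.88 to -0.40 on the log2 scale. They make up 25.8% of the measured genes, where 2.89% of all 13738 genes fell and 5.34% rose in the same comparison (limma, Benjamini-Hochberg adjusted over all genes). The median change of the 31 genes was -0.29, against 0.06 over all genes. By line the median was -0.27 in AGS, against 0.002 for all genes, and -0.24 in HGC-27, against 0.11 for all genes. In bulk RNA, a change in the share of cells of a state and a change in RNA per cell cannot be told apart.

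**Figure D1:**
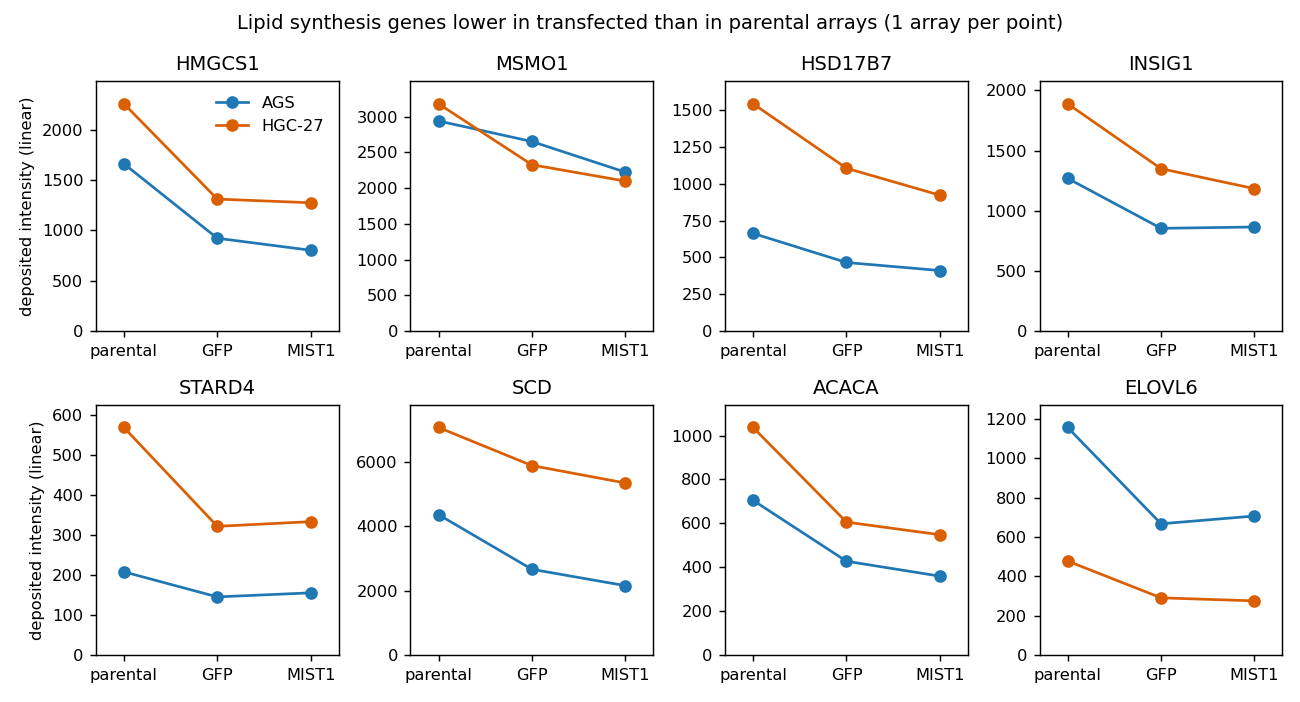
Deposited intensity (linear scale, from 0) of the 8 genes that fell, with 1 panel per gene and 1 point per array in AGS (blue) and HGC-27 (orange), ordered as parental, GFP control and MIST1. In every panel both lines have their highest value in the parental array, and the step from parental to GFP control is larger than the step from GFP control to MIST1 in all panels but the AGS line of MSMO1.

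Among the 6 mevalonate and isoprenoid enzymes, HMGCS1 fell. It encodes the cytosolic synthase that condenses acetyl-CoA with acetoacetyl-CoA at the entry of the pathway. In AGS its intensity was 1662 before transfection, 923 with the GFP control plasmids and 804 with MIST1, and in HGC-27 it was 2258, 1312 and 1275 in the same order. All 4 transfected arrays lay below both parental arrays. The fitted change was -0.88 (SE 0.09, adjusted p = 0.0206), a 1.84-fold decrease. A second HMGCS1 probe set was at -0.56 in AGS and at -0.06 in HGC-27, so the size in HGC-27 differed between the probe sets. IDI1, which isomerises isopentenyl pyrophosphate, and FDPS, which makes farnesyl pyrophosphate, were at -0.29 (adjusted p = 0.074) and -0.30 (adjusted p = 0.0642). Through the selected probe sets both were lower in the 2 lines. Other passing IDI1 probe sets were at -0.274, -0.755 and -0.447 in AGS and, in the same order, at -0.206, 0.242 and 0.461 in HGC-27. MVK, PMVK and MVD, which phosphorylate and decarboxylate mevalonate, were at 0.09, 0.02 and -0.19 and did not pass the test.

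In the sterol branch, MSMO1 and HSD17B7 fell among 9 measured genes. Both enzymes act in the removal of the methyl groups at carbon 4 of the sterol ring. HSD17B7 went from 663.5 to 466 and 412 in AGS and from 1542 to 1105 and 923 in HGC-27 (parental, GFP control, MIST1). The change was nearly the same in the lines, -0.60 in AGS and -0.61 in HGC-27, with a fitted value of -0.60 (SE 0.10, adjusted p = 0.027). The only HSD17B7 probe set is of the kind whose suffix marks possible cross-hybridization. MSMO1 read 2938, 2651 and 2223 in AGS cells, and 3178, 2326 and 2098 in HGC-27 cells, a change of -0.40 (SE 0.08, adjusted p = 0.0422).

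The other sterol branch genes did not pass the test, and they did not all point the same way. SQLE, the epoxidase that oxidises squalene, was at -0.26 (adjusted p = 0.0606) and DHCR7, the last reductase towards cholesterol, at -0.38 (adjusted p = 0.0685). Through the selected probe sets of both genes, each parental array was above the transfected arrays of its line. A second DHCR7 probe set was at -0.36 in AGS and -0.001 in HGC-27. A SQLE probe set that was not selected went from 1103 to 489.5 and 403 in AGS and from 4589 to 4001 and 3584 in HGC-27. Another SQLE probe set was at -0.12 in AGS and -0.11 in HGC-27, and a dim one at -0.83 and -0.10. SC5D, a desaturase late in the pathway, was at 0.44 (SE 0.14, adjusted p = 0.102), with 1482, 1547 and 1699 in AGS cells, and 1719, 2692 and 3149 in HGC-27 cells. NSDHL, which also acts in the demethylation, was at 0.16. Through the selected probe sets of SC5D and NSDHL the parental array was the lowest of each line. Their second probe sets did not repeat this in AGS, at -0.29 for SC5D and -0.25 for NSDHL. In HGC-27 these were at 0.36 and 0.09. LSS, TM7SF2 and EBP were at -0.11, -0.38 and -0.09.

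INSIG1 was the regulator that fell. It read 1269, 854 and 865 in AGS cells, and 1888, 1349.5 and 1183 in HGC-27 cells, a change of -0.57 (SE 0.09, adjusted p = 0.0271). A second INSIG1 probe set showed a larger difference, from 1061 to 504 and 424 in AGS and from 1551 to 697 and 643.5 in HGC-27, which is -1.20 and -1.21. The remaining INSIG1 probe set was at -0.62 in AGS and -0.45 in HGC-27. INSIG2, the second retention protein, pointed the other way at 0.66 (SE 0.20, adjusted p = 0.0898). Its intensity was 327, 384 and 397 in AGS cells, and 68.3, 134 and 151 in HGC-27 cells, so the difference was mostly in HGC-27. SREBF1 was at -0.31 (95% interval -0.54 to -0.08, adjusted p = 0.0904) and SREBF2 at -0.39 (-0.69 to -0.09, adjusted p = 0.0985). Through the selected probe sets, both were lower in the 4 transfected arrays than in the parental array of the same line. Neither passed the adjusted test. Other passing SREBF2 probe sets were at -0.23 and 0.39 in AGS and at -0.05 and 0.09 in HGC-27, so they did not share a direction. SCAP was at -0.001 in AGS and 0.43 in HGC-27.

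STARD4, a small carrier that moves sterols between membranes, fell by 0.63 on the log2 scale (SE 0.14, adjusted p = 0.0439). It read 208, 145 and 155 in AGS cells, and 569, 322 and 333.5 in HGC-27 cells. ACAT2, here the cytosolic acetoacetyl-CoA thiolase, was at -0.17.

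The fatty acid genes had the lowest group median, -0.62 over 6 measured genes. ACACA, ELOVL6 and SCD fell. ACACA encodes the acetyl-CoA carboxylase that makes malonyl-CoA and read 705, 427 and 359 in AGS cells, and 1037, 605.5 and 548 in HGC-27 cells. The change was -0.85 in each line (fitted SE 0.11, adjusted p = 0.0222). A second, dimmer ACACA probe set did not follow it, at 0.18 in AGS and -0.10 in HGC-27. ELOVL6, which elongates palmitate, read 1157, 667 and 706.5 in AGS cells, and 477, 290.3 and 275 in HGC-27 cells, a change of -0.76 (SE 0.11, adjusted p = 0.0234). SCD, the desaturase that makes oleate, went from 4361 to 2662 and 2153 in AGS and from 7071 to 5887 and 5345.5 in HGC-27, a change of -0.60 (SE 0.12, adjusted p = 0.0381).

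FASN, the fatty acid synthase itself, differed by a similar size and did not pass, -0.65 (SE 0.16, adjusted p = 0.0561). Its values were 696, 515.5 and 552 in AGS cells, and 1118, 652 and 543 in HGC-27 cells, with each parental array the highest of its line. ACLY, which supplies cytosolic acetyl-CoA from citrate, was at -0.03 with a 95% interval from -0.17 to 0.11. FADS2 was at -0.16.

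None of the 3 LXR-controlled genes passed. MYLIP, a ubiquitin ligase that removes lipoprotein receptors, read 380, 532 and 555 in AGS cells, and 875, 1120.2 and 1086.5 in HGC-27 cells, a difference of 0.42 (SE 0.11, adjusted p = 0.0606). The cholesterol exporters ABCA1 and ABCG1 were at -0.31 and -0.10. The measured genes of this kind therefore did not share a direction.

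**Figure D2:**
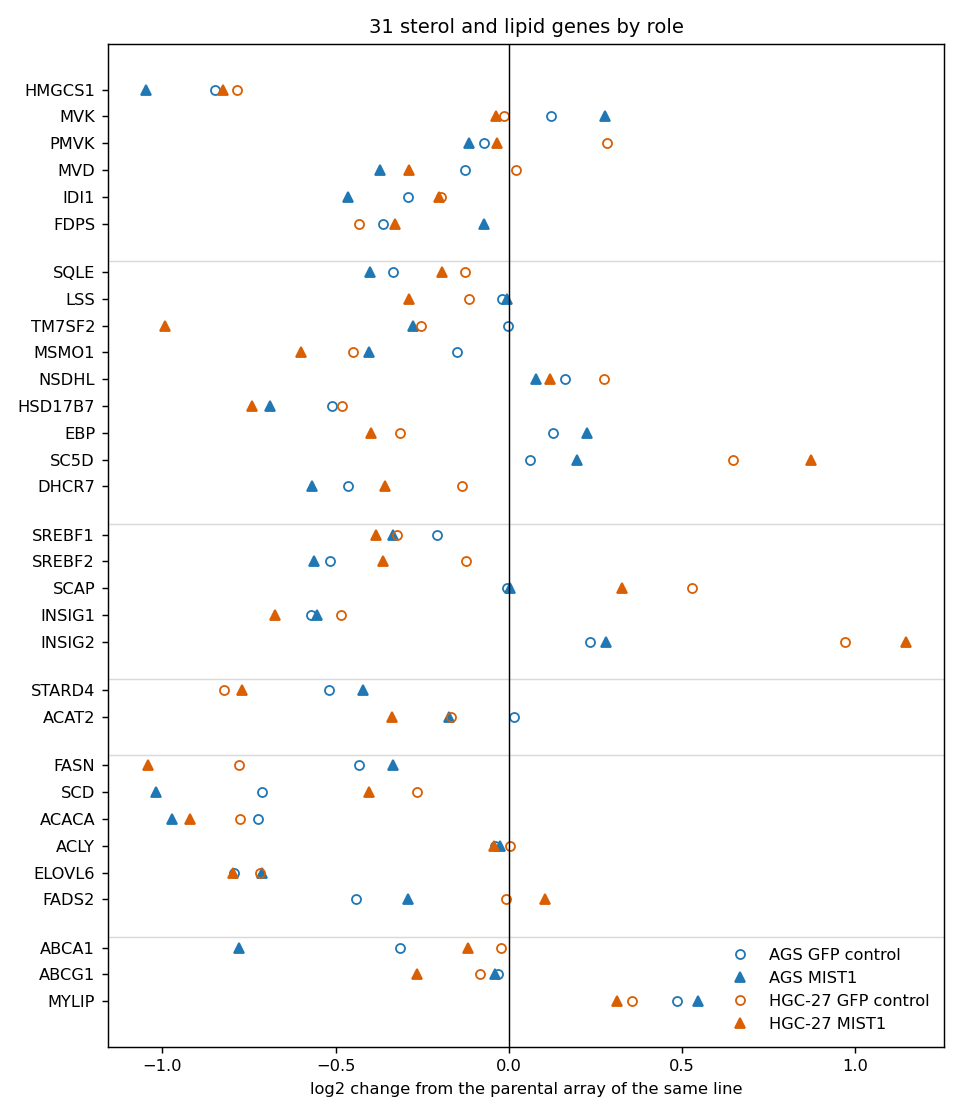
Log2 change of each of the 31 genes (rows, grouped by role from mevalonate enzymes at the top to LXR-controlled genes at the bottom) in the 4 transfected arrays, each against the parental array of its own line. Open circles are GFP control arrays, filled triangles MIST1 arrays, blue AGS and orange HGC-27. Most of the points lie left of 0. Through their selected probe sets, NSDHL, SC5D, INSIG2 and MYLIP lie to the right in all 4 arrays.

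By order alone, the parental array was above both transfected arrays in both lines for 19 of the 31 genes (61.3%), against 18.8% of all genes. It was below both in both lines for 4, NSDHL, SC5D, INSIG2 and MYLIP (12.9%), against 30.1% of all genes. For NSDHL, SC5D and MYLIP this did not hold for every passing probe set. The order with the parental array highest did not hold for every one either. LSS and SREBF2 each had a passing probe set that was higher after transfection in both lines. These were at 0.59 and 0.39 in AGS and at 0.21 and 0.09 in HGC-27. Other passing probe sets were available for 20 of the genes, 38 in all, and 29 of the 38 had the sign of the selected probe set in this comparison. Of the 38, 19 were lower in both lines. For the genes that fell, 8 of 9 further probe sets had the same sign and 7 of 9 were lower in both lines.

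The count of 8 moved with single arrays. With the AGS parental array left out it was 18 lower and 4 higher, and with that of HGC-27 left out 16 lower and 1 higher, where the line left without a parental array gives no information on the contrast. In these fits 12.3% and 20.2% of all genes were called lower and 30.0% and 19.0% higher, so the calls rose over all genes too. It was 5 lower and none higher without the HGC-27 GFP control, and 9 lower and 2 higher without the AGS MIST1 array. Without the AGS GFP control it was 6 lower and 1 higher, and without the HGC-27 MIST1 array 7 lower. In these fits 2.01% to 3.58% of all genes were called lower and 3.6% to 6.52% higher. With quantile normalization the count was 11, all lower, where 4.34% of all genes were called lower. No gene at all passed without the filter on dim probe sets, or without cell line as a block, so none of the 31 did. Of the 8 genes, MSMO1, HSD17B7 and STARD4 lost the call without the HGC-27 GFP control, HSD17B7 and STARD4 without the AGS GFP control, and STARD4 without the HGC-27 MIST1 array. HMGCS1 was called in the other 13 of 15 settings, and its adjusted p ran from 8.65e-06 to 1 over the 15.

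Both transfected conditions were then set against the parental cells separately. These comparisons share the parental arrays, so their values are given side by side and are not independent. In the GFP control none of the 31 genes passed the adjusted test, where 0.124% of all genes fell. At an unadjusted p under 0.05, 13 of the 31 were lower, against 8.04% of all genes, and 2 were higher, against 15.2%. HMGCS1 had the smallest adjusted p, 0.0502. In the fit of only the 4 arrays compared, 6 genes passed, HMGCS1, FDPS, INSIG1, SCD, ACACA and ELOVL6, all lower, where 2.21% of all genes were called lower and 4.45% higher. With all conditions in the fit, 13 passed downward and 5 upward with the AGS parental array left out, and 12 and 1 with that of HGC-27 left out. In these fits 10.7% and 17.0% of all genes were called lower and 28.1% and 16.4% higher. Leaving out the AGS or the HGC-27 MIST1 array gave 6 and 5 downward calls, where 2.19% and 2.13% of all genes were called lower.

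In the MIST1 cells 5 genes fell, HMGCS1, HSD17B7, INSIG1, ACACA and ELOVL6, where 1.21% of all genes fell. Their changes in MIST1 and in GFP control cells were -0.94 and -0.82 for HMGCS1, -0.95 and -0.75 for ACACA, -0.75 and -0.76 for ELOVL6, -0.72 and -0.50 for HSD17B7 and -0.61 and -0.53 for INSIG1. Of the 31, none was called when the floor was the median or when dim probe sets were kept. None was called either when the fit lacked the variance trend or the line block. In all those fits no gene at all was called. Averaging every probe set of a gene left INSIG1 as the 1 member called, where 0.167% of all genes were called lower. Without the AGS or the HGC-27 MIST1 array 1 MIST1 array is left, so only the median change of the 31 genes is given here. That median was -0.29 and -0.34, against -0.33 in the fit reported. Without a GFP control array of either line 8 genes passed downward and SC5D upward, and without the AGS or the HGC-27 parental array 19 and 16 passed downward and 4 and 2 upward. With a GFP control array left out 2% (AGS) and 2.09% (HGC-27) of all genes were called lower, and 4.06% and 4.29% higher. With a parental array left out 11.9% and 19.9% of all genes were called lower and 27.0% and 18.1% higher.

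A rule of at least 1.5-fold in both lines gave HMGCS1, ACACA and ELOVL6 in the GFP control (9.68% of the measured genes), where 1.59% of all genes passed downward. In the MIST1 cells the same rule gave these 3 and HSD17B7 (12.9%), where 1.74% of all genes passed.

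**Figure D3:**
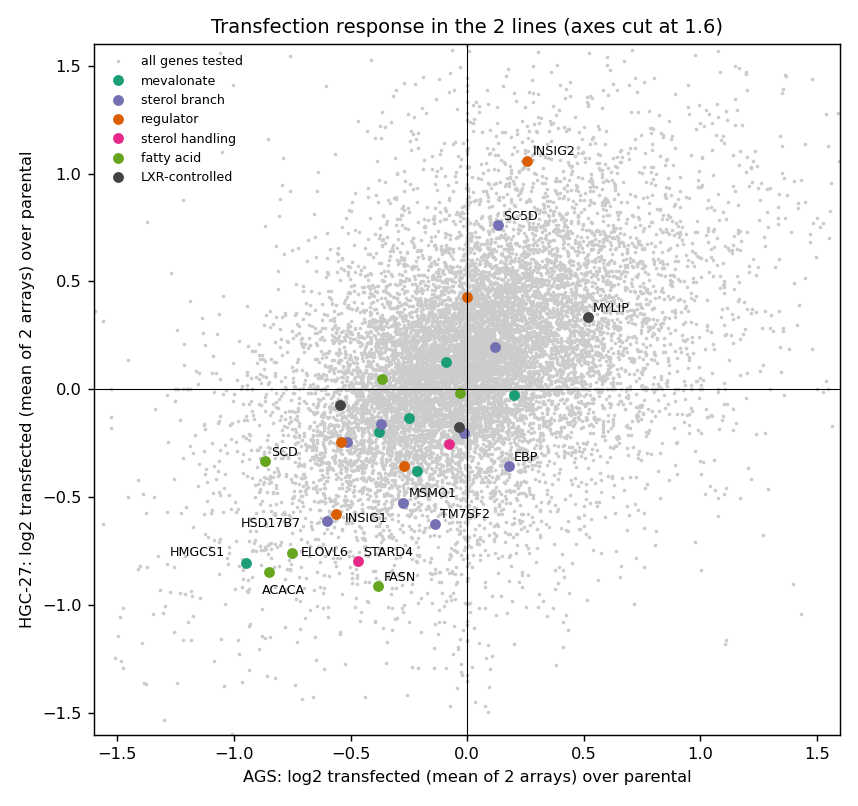
Log2 ratio of the transfected arrays (mean of GFP control and MIST1) to the parental array in AGS (horizontal) and HGC-27 (vertical), with all tested genes in grey and the sterol and lipid genes coloured by role. HMGCS1, ACACA, ELOVL6, HSD17B7 and INSIG1 lie low in both lines near the diagonal, while INSIG2 and SC5D lie high on the HGC-27 axis and EBP lies below 0 in HGC-27 but above 0 in AGS.

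The 8 genes were called in a fit whose spread includes the difference between the lines' responses, which favours genes that respond alike, so that difference is given for them as a description. The difference in response, HGC-27 minus AGS, was 0.000 for ACACA (95% interval -0.45 to 0.45), -0.004 for ELOVL6 (-0.34 to 0.33), -0.01 for HSD17B7 (-0.48 to 0.45), -0.02 for INSIG1 (-0.35 to 0.31) and 0.14 for HMGCS1 (-0.19 to 0.48). The other 3, MSMO1, STARD4 and SCD, were at -0.25, -0.33 and 0.53. The intervals do not show that the responses were equal. All these values are those of the selected probe sets. Other passing ELOVL6 probe sets were at -0.72 and -0.46 in AGS and at -0.21 and -0.49 in HGC-27. Those of INSIG1 were at -1.20 and -0.62 in AGS and at -1.21 and -0.45 in HGC-27. The second probe sets of HMGCS1 and ACACA, given above, differed more between the lines than the selected ones.

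The lines differed in response for EBP and INSIG2 by the interaction test, 1 gene in each direction. In that test the GFP control and MIST1 arrays of a line take the place of replicates. Of all genes, 2.66% were called lower in HGC-27 than in AGS and 7.53% higher, so neither share (3.23% each) stands far from that of all genes. EBP, the sterol isomerase, went from 1667 to 1821 and 1951 in AGS and from 1529 to 1229 and 1160.3 in HGC-27. The difference was -0.53 (SE 0.11, adjusted p = 0.0381), but the other passing EBP probe sets were at -0.16 and -0.18 in AGS and at -0.38 and 0.07 in HGC-27, so 1 of the 3 probe sets was higher after transfection in AGS. INSIG2 differed by 0.80 (SE 0.18, adjusted p = 0.0445), with responses of 0.26 in AGS and 1.06 in HGC-27. All genes together had a median difference of 0.12, which became -0.01 after quantile normalization, and INSIG2 was then at 0.67 (adjusted p = 0.0892). SC5D differed by 0.63 (adjusted p = 0.0526), SCD by 0.53 (unadjusted p = 0.0218) and FASN by -0.53 (unadjusted p = 0.0257), and none of these passed the adjusted test of limma. SCD was thus at -0.87 in AGS and -0.33 in HGC-27, and FASN at -0.38 and -0.91. Leaving out any 1 of the transfected arrays leaves 1 such array in that line, and these fits called no gene at all. They therefore cannot decide for EBP or INSIG2.

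The study asked which genes the MIST1 plasmid raises over its own transfection control. None of the 31 genes passed in the comparison of MIST1 with the GFP control, and 0% of all genes did (limma; 184 of 13738 genes, TM7SF2 among them as the 1 gene of the list, had an unadjusted p under 0.05). The fit of only the 4 arrays compared called 57 genes, none of the list. The median of the 31 genes was -0.10, against -0.02 over all genes. MIST1 cells were lower than the GFP control in both lines for 17 of the 31 genes (54.8%), against 32.7% of all genes, and higher in both for 5 (16.1%), FDPS, SC5D, INSIG2, STARD4 and FADS2, against 24.5%.

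The gene with the largest difference was TM7SF2, a sterol reductase of the pathway's middle part. It read 416 in the GFP control and 344 in the MIST1 cells of AGS and 127.5 and 76.4 in HGC-27, at -0.51 (SE 0.20, unadjusted p = 0.0437 from limma, adjusted p = 1). The parental arrays read 417 in AGS, close to the GFP control, and 152 in HGC-27. ABCA1 was at -0.28, with 47.9 and 34.7 in AGS cells, and 407.5 and 381.5 in HGC-27 cells. MVD, the mevalonate pyrophosphate decarboxylase, was at -0.28, with 229 and 194 in AGS cells, and 318 and 257 in HGC-27 cells. SCD, HSD17B7 and MSMO1 were at -0.22, -0.22 and -0.20, each lower in both lines, while FDPS was at 0.20 and higher in both.

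With 1 array per condition and line, the intervals of these differences remain wide. For HMGCS1 the 95% interval of MIST1 over GFP control was -0.38 to 0.14, for INSIG1 -0.34 to 0.17, for SREBF1 -0.36 to 0.17, for SREBF2 -0.49 to 0.21 and for FASN -0.52 to 0.36. An interval that includes 0 does not show that the conditions were alike.

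**Figure D4:**
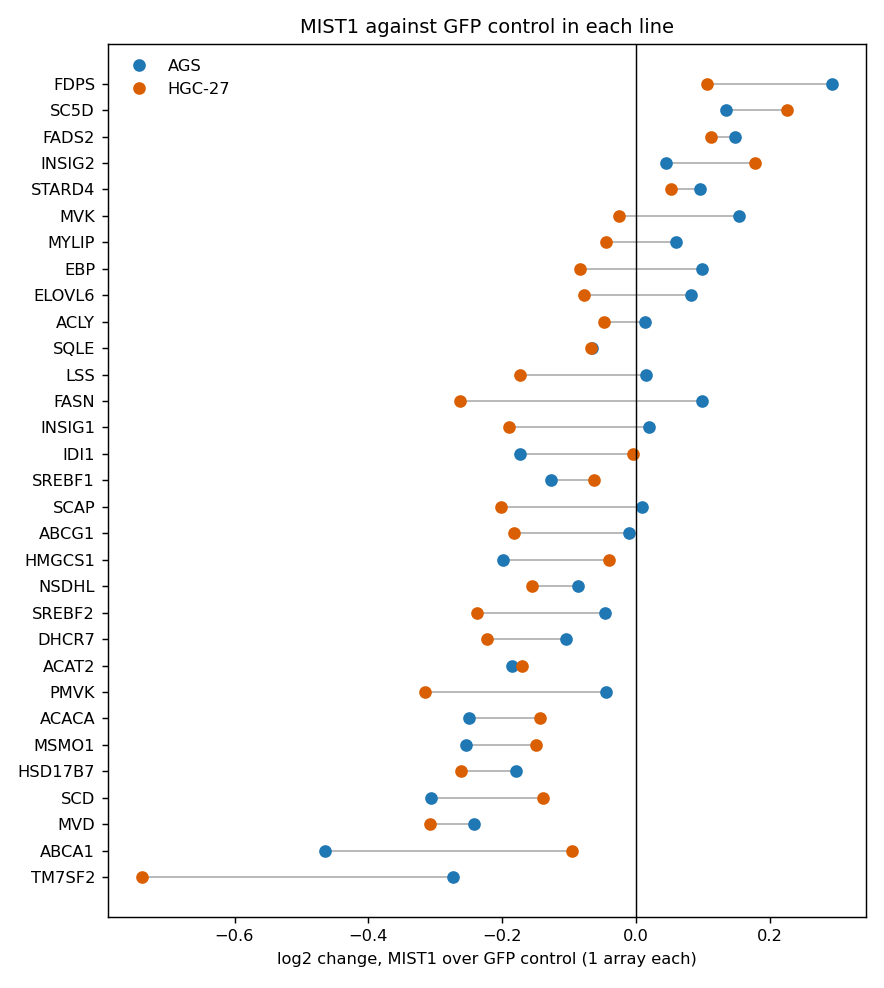
Log2 change of MIST1 over GFP control for the 31 genes, ordered by the mean of both lines, with 1 point for AGS (blue) and 1 for HGC-27 (orange) joined by a line, and 1 array behind each value. TM7SF2 at the bottom has -0.27 in AGS and -0.74 in HGC-27, FDPS at the top has 0.29 and 0.11, and most genes lie within 0.3 of 0.

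The 2 lines differed more from each other than the conditions did. AGS was lower than HGC-27 for 21 of the 31 genes (67.7%) and higher for 5 (16.1%), where 27.1% of all genes were lower in AGS and 33.1% higher. The median of the 31 genes was -0.56, against 0.06 over all genes. In this comparison a line's 3 conditions take the place of replicates. By order alone, all 3 AGS arrays lay below all 3 HGC-27 arrays for 19 genes, against 27.2% of all genes, and above them for TM7SF2, EBP, SCAP, INSIG2 and ELOVL6, against 34.1%.

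Genes lower in AGS included mevalonate, sterol and fatty acid enzymes and both SREBP genes. SQLE read 2758, 2187.5 and 2089.5 in AGS cells, and 9332, 8547 and 8161 in HGC-27 cells, a difference of -1.90 (SE 0.06, adjusted p = 1.21e-06), or 3.72-fold. SREBF2 read 442, 309 and 299.5 against 907, 832 and 705.5, a difference of -1.23 (SE 0.12, adjusted p = 0.000145). Its other passing probe sets were at -0.825 and -0.113, so the size depends on the probe set. SREBF1 was at -0.94 (SE 0.09). STARD4 and HSD17B7, whose values are given above, differed by -1.23 and -1.21. Of the 9 measured sterol branch genes 6 were lower in AGS, and of the 6 mevalonate enzymes HMGCS1, MVD, IDI1 and FDPS were.

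Through their selected probe sets, the LXR-controlled genes were all lower in AGS. ABCA1 was furthest apart, with 59.5, 47.9 and 34.7 in AGS cells, and 414, 407.5 and 381.5 in HGC-27 cells, a difference of -3.12 (SE 0.17, adjusted p = 9e-06). Of the AGS values, 2 of 3 lie below 50.53, the median of all deposited values, so the size of the difference is uncertain. ABCG1 was at -1.12 through its selected probe set. A second ABCG1 probe set read 8.0, 20.7 and 9.1 in AGS cells, and 701, 494 and 393 in HGC-27 cells. The remaining passing ABCG1 probe sets were at -1.49 and 0.18, so both size and direction depend on the probe set. MYLIP was at -1.08.

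Higher in AGS were TM7SF2 at 1.78 (SE 0.16, adjusted p = 0.000126), INSIG2 at 1.72 (SE 0.19, adjusted p = 0.000289), ELOVL6 at 1.28 (SE 0.10, adjusted p = 6.49e-05), SCAP at 0.57 and EBP at 0.48. The INSIG genes thus lay in opposite directions, INSIG1 at -0.56 and INSIG2 at 1.72. MSMO1 was at 0.05 (adjusted p = 0.598), and FADS2, MVK, PMVK and FASN, from -0.17 to -0.33, did not pass either. For FADS2 this depends on the probe set. Its second one read 16.6, 26.1 and 10.4 in AGS cells, and 144.9, 156.3 and 166.7 in HGC-27 cells. Other passing probe sets were at 0.44 and 0.20 for MVK and at 0.10 for FASN, against the sign of the selected ones. Those of ELOVL6 were at 1.11 and -0.07, so its difference too depends on the probe set. Quantile normalization moved the median of all genes from 0.06 to -0.02 in this comparison. It gave 24 of the 31 genes lower and 4 higher, where 32.5% of all genes were lower and 29.8% higher, so the balance over all genes reversed. EBP then no longer passed (0.32, adjusted p = 0.0895).

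**Figure D5:**
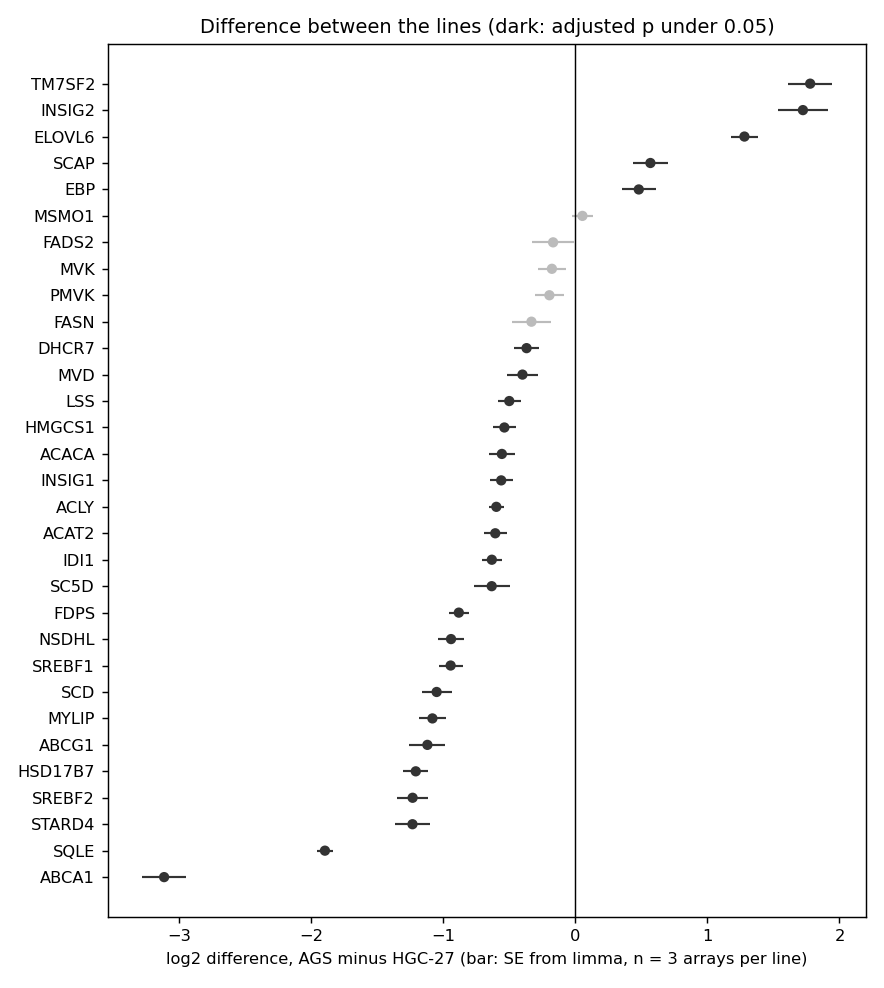
Log2 difference of AGS minus HGC-27 for the 31 genes, ordered by size, with the limma standard error as bars over 3 arrays per line and dark symbols for genes with an adjusted p under 0.05. The values run from -3.12 for ABCA1 to 1.78 for TM7SF2, with 25 genes below 0.

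Other genes around the pathway, taken from a separate list, were measured for 39 of 47. After transfection none of them fell and 3 rose (7.69%, close to the 5.34% of all genes), and their median change was 0.003. ICMT, which methylates prenylated proteins, rose by 0.49 (SE 0.08, adjusted p = 0.0256), with 1802, 2447 and 2483.5 in AGS cells, and 1144, 1659.5 and 1642 in HGC-27 cells. RNF139 and UBE2G2, a ubiquitin ligase and a conjugating enzyme that act in degradation at the endoplasmic reticulum, rose by 0.41 (SE 0.08, adjusted p = 0.0336) and 0.45 (SE 0.09, adjusted p = 0.0417). In the comparison of the lines 13 of the 39 were lower in AGS (33.3%) and 11 higher (28.2%), near the 27.1% and 33.1% of all genes.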

How the data were processed

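Per the labels' protocols, each array received target made from 5 µg of total RNA by one-cycle labelling. The authors deposited 1 linear intensity per probe set and array (0.48 to 19070.5); the series design text names dChip, and background correction and scaling are not given in the sources used here. Of 54675 probe sets, 41097 have 1 gene in the platform annotation, 1801 several and 11777 none listed; 41043 symbols were updated through the gene ID. Deposited intensities were set to a floor of 17.6 (25th percentile of all values) and taken to log2. Probe sets with at least 2 of 6 arrays above 50.53, the median of all values, were kept (25948, AFFX controls excluded), and the one with the highest mean log2 value stood for a gene (13738 genes). Array medians lay between 49.1 and 52.0, so no further scaling was done.

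limma 3.58.1 in R 4.3.3 (lmFit, eBayes with a trend) was fitted to all 6 arrays with cell line as a block, since a line's arrays share their cells; deviations from the condition means correlated at 0.943 to 0.986 within a line. Tests were two-sided, adjusted by Benjamini-Hochberg over all genes at 0.05, with 2 residual and 4.47 prior degrees of freedom (4.35 for the difference in response). P-values measure the spread between single arrays of 2 lines, which may be technical or reflect the lines; for the difference in response it comes from the GFP control and MIST1 arrays within a line, which stand as replicates. The number of arrays limits the precision. Values in every array were given for the 10 genes with the largest change after transfection, 8 between lines, 6 between MIST1 and GFP control with 1 sign in both lines and 5 in the difference of response; other genes and probe sets printed by array were picked after their values were seen. The members and lists were chosen with earlier results of these data known. The fit was tested on simulated data. Alternatives covered the floor, the filter, quantile normalization, the choice of probe set, the variance trend, the block, the arrays in the fit, the fold limit and each array left out.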

Additional observations from a re-analysis of the deposited data

Results flagged for a closer look

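The response to transfection differed between the lines for EBP, whose difference (HGC-27 minus AGS) was -0.53 on the log2 scale by the interaction term of limma (adjusted p = 0.0381). The adjusted p lay between 0.0286 and 0.328 over 12 alternatives, and EBP passed in 4 of them. The alternatives include the fits without 1 of the transfected arrays, which called no gene at all. Its 2 other passing probe sets did not repeat the AGS direction, and the mean over its probe sets gave -0.17.

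INSIG2 differed by 0.80 (adjusted p = 0.0445), higher in all 4 transfected arrays than in the parental array of the same line, and more so in HGC-27. The adjusted p lay between 0.0383 and 0.243 over 12 alternatives, of which 4 kept the call. These alternatives too include the fits without 1 of the transfected arrays, which called no gene at all. INSIG2 is read by 1 probe set.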

How the results depend on the processing

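No value of a single gene that had been called changed direction, while the median difference in response, 0 in the fit reported, took either sign. Under 12 to 16 alternatives per result, 655 of 761 values for single genes stayed on their side of the threshold, 97 lost it and 9 passed it. Of the 31 genes, 8 were called after transfection; the floor at the median gave 5, no filter 0, the mean of all probe sets 4, no variance trend 3 and the fit with no replicate block 0, with 5 to 22 when 1 array was left out. MIST1 against parental called 5, and 3 with no floor, 0 with a median floor, no filter, no trend or no replicate block, 9 with quantile normalization or only the arrays compared, 1 with the mean of all probe sets and 3 to 23 with 1 array left out. GFP control against parental called 0, and 1 with quantile normalization, 6 with only the arrays compared and 0 to 18 with 1 array left out. The difference in response called 2, 1 lower and 1 higher, where 2.66% and 7.53% of all genes were. Quantile normalization gave 1, lower (3.65%). The floor at the median, no filter and no trend gave 0. In these 0.32%, 1.42% and 0.437% of all genes were called lower, and 0.48%, 1.89% and 0.859% higher. A fit without a parental array or without the block gives no value for the difference in response. Medians moved beyond the spread as follows: GFP control against parental to -0.13 (mean of all probe sets; -0.22 to -0.16 leaving out 1 array), MIST1 against parental to -0.34 (quantile) and -0.30 (without _x_at probe sets; -0.38 to -0.28 leaving out 1 array), transfected against parental to -0.26 (without _x_at probe sets; -0.29 to -0.23 leaving out 1 array), AGS against HGC-27 to -0.71 (quantile) and -0.66 (mean of all probe sets), and the difference in response to -0.15 (quantile) and 0.059 (mean of all probe sets; -0.043 to 0.078 leaving out 1 array). A fold limit of 1.2 in both lines gave 9 genes in the GFP control and 14 in MIST1 cells. A limit of 2 gave 0 in both, and the mean of all probe sets at the reported limit gave 1 and 2. The share of all genes passing was not counted for these alternatives, so their counts show no excess over all genes. Over all genes, those called after transfection numbered 1131 in the fit reported and from 0 (no filter, no block) through 265 (no trend) to 1369 (quantile), and 771 to 5811 with 1 array left out; MIST1 against parental 467 and 0 to 848, with 466 to 5339; GFP control against parental 37 and 0 to 915, with 77 to 5332; the difference in response 1400 and 110 to 1580, with 0; MIST1 against GFP control 0 and 0 to 57, with 1 to 57. Quantile normalization moved the share of calls that were lower from 45.9% to 61.8% for the GFP control, from 26.1% to 49.2% for the difference in response and from 45.0% to 52.2% for AGS against HGC-27, and the HGC-27 median of all genes after transfection from 0.11 to 0.02. The choice of probe set by linear mean and the fit without _x_at probe sets were chosen after seeing the data. The cause of these changes was not tested, and a transcript near the floor has an understated change.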
